A study of Mus musculus with 2 samples.

Results

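The proteasome genes were the 50 of 32285 features whose mouse symbol starts with Psma, Psmb, Psmc, Psmd, Psme, Psmf or Psmg and a number, with pseudogenes left out. They were followed across islet cell types of 1 library of CDS-treated and 1 library of saline-treated mice. The proteasome is the cell's main protease for proteins tagged with ubiquitin. Its 20S core is a barrel of alpha rings (Psma genes) and beta rings (Psmb genes), and a 19S cap of ATPases (Psmc) and non-ATPase subunits (Psmd) binds, unfolds and feeds in the substrate. The cuts are made by Psmb5, Psmb6 and Psmb7. Under interferon-gamma, and constantly in most immune cells, Psmb8 is built in for Psmb5, Psmb9 for Psmb6 and Psmb10 for Psmb7, which makes the immunoproteasome and changes the peptides offered on MHC class I. Beta cells make and fold large amounts of proinsulin, and interferons are known to induce the immunoproteasome in them.

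Both groups were DIO mice, as the labels call them, given CDS at 10 mg/kg or saline for 2 weeks. The labels do not say what CDS is, what DIO stands for or how many animals a library holds. The series title names an antagonist of the alpha2A-adrenergic receptor. Islets were freed with collagenase and picked under a microscope, and their cells were profiled by 10x droplet sequencing, in which each UMI (unique molecular identifier) stands for 1 captured RNA molecule. UMIs of 2 genes can therefore be set side by side without a correction for transcript length, although capture may differ between genes. With 1 library a group no difference has a replicate check, no test across samples was possible, cells are not replicates, and every 95% interval below covers counting error only.

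After filters and removal of called doublets, 6188 CDS cells and 10970 saline cells remained, with medians of 19159 and 9790 UMIs. Barcodes present in both libraries numbered 25, or 18 after filtering. The labels call the cells islet b cells, but clusters named from marker genes ("beta-like" and so on) held other types too. Beta-like cells were 3200 of the CDS and 4527 of the saline cells, with Ins1 between 79313 and 134719 CPM (UMIs scaled to a common total of a class in a library) in their 5 clusters. Alpha-like cells numbered 870 in the CDS and 916 in the saline library, delta-like 503 and 550, endothelial-like 264 and 343, macrophage-like 160 and 165, and stromal-like 73 and 171. B-like cells numbered 35 in the CDS library and 1187 in the saline library, and T-like cells 12 and 926. Another cluster in which T cell markers scored highest, with 6 CDS and 615 saline cells, stayed unnamed. The T-like values below leave it out, and at Leiden resolution 0.5 the T-like class held 26 CDS and 1580 saline cells. The 50 genes held 481201 UMIs in the CDS and 403052 in the saline library.

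The immune and the standard catalytic subunits are set against each other below, so promoters of both kinds are printed first. They are the 250 bases before the annotated start of 2 immunoproteasome genes and 2 standard genes (RefSeq, GRCm38.p6), 5′ to 3′ on the gene's strand. Capitals mark a match, on either strand, to the interferon-gamma element known as GAS (TTCNNNGAA) or to the NRF-binding antioxidant response element, ARE (TGACNNNGC). The windows are chr17:34197945-34198194 on the plus strand for Psmb8, chr17:34187331-34187580 on the minus strand for Psmb9, chr14:54617996-54618245 on the minus strand for Psmb5 and chr11:70525107-70525356 on the plus strand for Psmb6.
Psmb8: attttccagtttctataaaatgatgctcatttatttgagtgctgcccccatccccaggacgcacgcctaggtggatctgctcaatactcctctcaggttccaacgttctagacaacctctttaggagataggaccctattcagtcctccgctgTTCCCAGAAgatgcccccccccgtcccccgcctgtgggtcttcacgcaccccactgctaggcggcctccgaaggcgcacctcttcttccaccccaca
Psmb9: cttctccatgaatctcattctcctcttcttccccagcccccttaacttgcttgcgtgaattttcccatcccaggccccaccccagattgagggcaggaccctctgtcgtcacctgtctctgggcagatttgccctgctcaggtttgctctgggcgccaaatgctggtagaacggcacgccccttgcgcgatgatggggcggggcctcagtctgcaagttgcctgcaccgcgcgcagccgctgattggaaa
Psmb5: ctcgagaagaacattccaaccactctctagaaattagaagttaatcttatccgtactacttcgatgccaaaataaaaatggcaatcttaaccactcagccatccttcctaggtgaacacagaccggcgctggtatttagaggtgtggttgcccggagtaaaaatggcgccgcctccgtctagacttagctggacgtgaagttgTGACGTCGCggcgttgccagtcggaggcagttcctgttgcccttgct
Psmb6: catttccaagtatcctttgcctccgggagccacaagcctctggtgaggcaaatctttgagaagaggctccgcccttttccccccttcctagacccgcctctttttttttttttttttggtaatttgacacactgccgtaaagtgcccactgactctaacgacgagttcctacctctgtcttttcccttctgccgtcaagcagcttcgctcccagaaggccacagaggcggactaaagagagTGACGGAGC

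The GAS match in Psmb8, TTCCCAGAA, begins 97 bases before the start. The ARE match is TGACGTCGC, beginning 47 bases before the start, in Psmb5 and TGACGGAGC, beginning 9 bases before it, in Psmb6. Neither these motifs nor the interferon-stimulated element ISRE matched in the windows of Psmb9 or Psmb10. Promoters were matched for 42 of the 50 genes, and the share holding each motif is given beside that of all genes in the table. GAS was in 2 of 42 (4.76%, Psmb8 and Psmg1) against 8.13% of 27025 genes, and ARE in 5 of 42 (11.9%) against 11.5%. ISRE was in 3 of 42 (7.14%, Psmb3, Psmd4 and Psmd9) against 3.46%, and CCAAT in 15 of 42 (35.7%) against 37.5%. These are letter matches in short windows, not measured binding. The whole windows of Psmb8 and Psmb9 lie inside the wider GENCODE spans given further on. Those of Psmb5 and Psmb10 overlap the GENCODE spans of their genes in part.

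The summed level of proteasome RNA differed between cell types. The 50 genes together made 3278 CPM (95% interval 3266 to 3290) in CDS and 2965 CPM (2953 to 2977) in saline beta-like cells. Alpha-like cells held 3630 CPM in the CDS and 3186 CPM in the saline library, and delta-like cells 5132 and 4579 CPM. Endothelial-like cells, which make no hormone, held 7750 and 6867 CPM. Macrophage-like cells held 5981 CPM in the CDS and 6324 CPM in the saline library, and stromal-like cells 6921 and 7940 CPM. The CDS library was thus higher in the hormone and endothelial classes and lower in the macrophage and stromal classes. Among smaller classes, ductal-like cells held 7946 CPM in CDS and 7022 CPM in saline, and B-like cells 5092 and 5926 CPM. Acinar-like cells, on 47 CDS and 89 saline cells, held 2870 and 4680 CPM. Theirs was the lowest CDS total among classes with at least 20 cells. In the saline library alone, the highest total was 8795 CPM in dendritic-like cells and the lowest was 2965 CPM in beta-like cells, among the 13 classes with at least 20 cells.

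In beta-like cells most of the proteasome moved together. To compare the libraries, UMIs were summed over each class and scaled with TMM, which sets the bulk of genes to equal levels. A gene counted as measured when the libraries together gave it 50 UMIs or more and neither was at 0. It was called higher where the ratio of CDS over saline was at least 25% above 1, and lower where it was at least 20% below 1, if the interval also left out 1. These are the limits meant below. Of 48 measured members, 37 were higher and 1 was lower, where 26.8% of all 15022 measured genes were higher and 18.5% lower. The median log2 ratio was 0.56 for the members and 0.05 for all genes. Plain CPM, without TMM, moved every ratio in beta-like cells by -0.38 on the log2 scale, which left 16 of 48 members higher and 2 lower, where 9.73% of all genes were higher and 47.9% lower. All directions here are therefore relative to the bulk of genes.

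The 20S core held many of the higher ratios in beta-like cells. Psmb5, which makes the chymotrypsin-like cut, had 11888 UMIs (148 TMM-scaled CPM) in CDS cells and 6655 UMIs (77.7 CPM) in saline cells, a ratio of 1.91 (1.85 to 1.96). Psmb6, the caspase-like subunit, had 9442 UMIs (118 CPM) in CDS and 5606 UMIs (65.4 CPM) in saline cells, a ratio of 1.80. Psmb7, the trypsin-like subunit, moved less than its partners. It had 4635 UMIs (57.7 CPM) in CDS and 3797 UMIs (44.3 CPM) in saline cells, a ratio of 1.30 (1.248 to 1.36) that stood at 0.999 on plain CPM. Psmb7 is also the longest of these genes, with a span of 56052 bases against 3904 for Psmb5 and 2492 for Psmb6, a property taken up again below.

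The other core genes followed. All 7 measured alpha-ring genes and all 4 non-catalytic beta-ring genes were higher, with median ratios of 1.52 and 1.64. The alpha ring gates the barrel. Its ratios ran between 1.47 for Psma3 and 1.86 for Psma2, and Psma7 had the most UMIs of any member, 17330 in CDS and 11929 in saline beta-like cells (ratio 1.55). The non-catalytic beta genes lay close together, at 1.62 for Psmb4, 1.64 for Psmb1, 1.65 for Psmb3 and 1.69 for Psmb2. The reads of Psma2 cannot be fully told apart from those of AW209491, which overlaps it on the same strand.

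The immunoproteasome genes stood at about the level of change of the standard ones. Psmb8 had 3685 UMIs (45.9 TMM-scaled CPM) in CDS and 2065 UMIs (24.1 CPM) in saline beta-like cells, a ratio of 1.90 (1.80 to 2.01). Psmb9 had 968 UMIs (12.1 CPM) in CDS and 602 UMIs (7.03 CPM) in saline cells, a ratio of 1.72 (1.55 to 1.90). Psmb10 had 3085 UMIs (38.4 CPM) in CDS and 1858 UMIs (21.7 CPM) in saline cells, a ratio of 1.77 (1.67 to 1.88). Psmb8 and Psmb9 lie near each other in the MHC region of chromosome 17. Their spans are chr17:34197721-34201454 on the plus strand and chr17:34181987-34187764 on the minus strand (mm10, whole genes). In CDS beta-like cells, 50% of the Psmb8 UMIs were in 425 of 3200 cells, and in saline cells in 422 of 4527, so the RNA was not confined to a few cells.

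Genes of assembly factors showed the highest single ratio. Psmg1 to Psmg4 code for chaperones that build the alpha ring, and all 4 were higher in beta-like cells. Psmg4 had 4150 UMIs (51.7 TMM-scaled CPM) in CDS and 1901 UMIs (22.2 CPM) in saline cells, a ratio of 2.33 (2.21 to 2.46). Psmg3 stood at 1.81, Psmg1 at 1.72 and Psmg2 at 1.42. The 19S base chaperones Psmd10 (gankyrin), Psmd9 and Psmd5 were higher too, at 1.77, 1.51 and 1.41.

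The 19S cap had lower ratios than the core. Of the 6 base ATPases 4 were higher, with a median ratio of 1.31 and a highest of 1.37 for Psmc2, while Psmc3 (1.18) and Psmc1 (1.10) passed neither limit. Of the 11 non-ATPase genes 6 were higher, with a median of 1.36. Psmd8 stood highest at 1.62. The scaffold genes Psmd1 (1.248) and Psmd2 (1.19), as well as Psmd11 (1.24), Psmd7 (1.22) and Psmd14 (1.04), the deubiquitinase of the lid, passed neither limit. Psmd12 was higher at 1.40, and its reads overlap those of Gm11722 on the same strand.

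The activators split by kind. Psme1 and Psme2 form the interferon-inducible PA28 cap that often sits on the immunoproteasome, and both were higher, Psme1 at 52.1 TMM-scaled CPM in CDS against 31.4 CPM in saline cells (ratio 1.66), and Psme2 at 90.6 against 51.4 CPM (1.76). Psme3, the nuclear relative of PA28, stood at 1.04 and the regulator Psmf1 at 1.14. Psme4, which codes for the large activator PA200, was the only member called lower, with 10586 UMIs (132 CPM) in CDS and 14123 UMIs (165 CPM) in saline cells, a ratio of 0.80 (0.78 to 0.82) that lies at the limit. It spans 108636 bases, the most of all members. The near-copy Psme2b had 43 UMIs in CDS and 41 in saline cells and may share reads with Psme2. Psmc3ip, named for a partner of Psmc3 and known as a recombination factor rather than a subunit, stood at 1.41 on 141 CDS and 107 saline UMIs.

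Tissue-restricted members were all but missing. Psmb11, the catalytic subunit of the thymus cortex, had 1 UMI in the CDS and 1 in the saline beta-like cells, and Psma8, the testis form of an alpha-ring gene, had 3 and 3. Neither was measured in beta-like cells. Psma8 reached the minimum in endothelial-like cells, with 20 CDS and 31 saline UMIs and a ratio of 0.714 that passed neither limit.

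**Figure D1:**
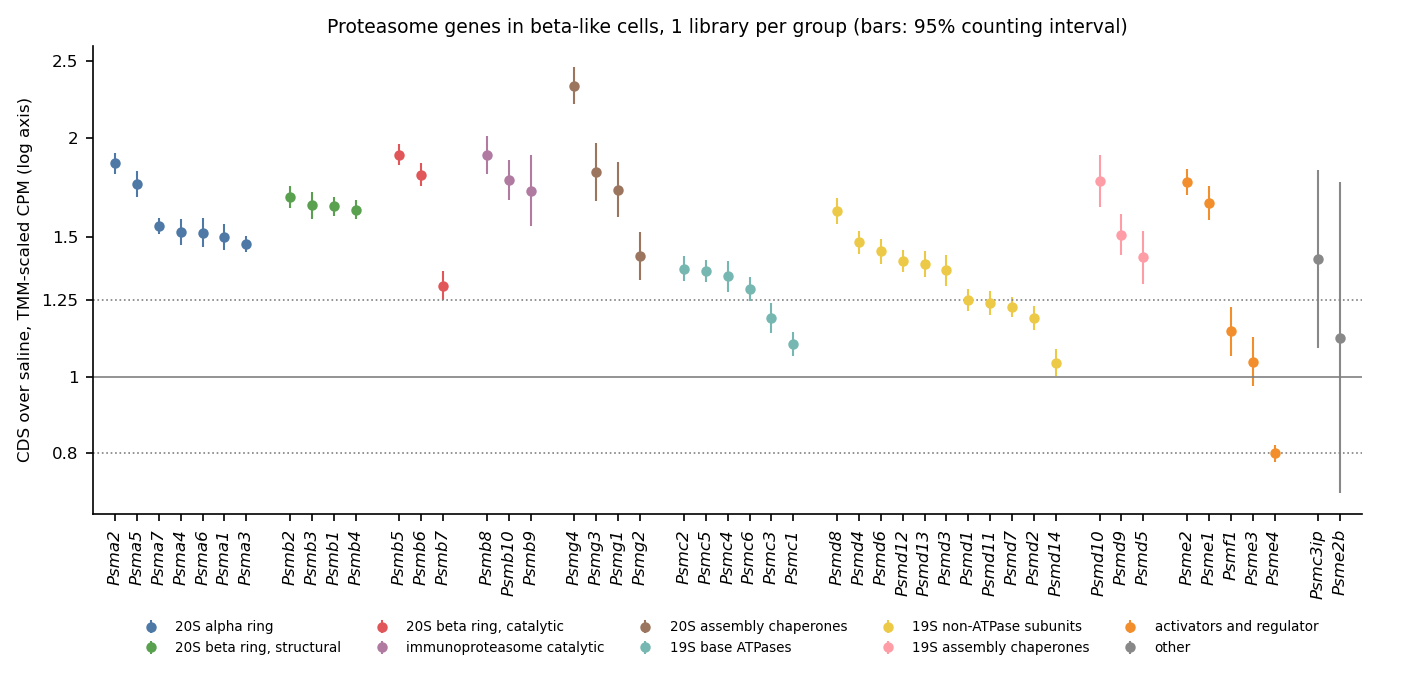
Ratios of CDS over saline for the measured proteasome genes in beta-like cells, on a log axis, grouped by role; points are ratios of TMM-scaled CPM, bars are 95% counting intervals and dotted lines are the limits for a call. Of 48 points 47 lie above 1, with Psmg4 at 2.33 the highest and Psme4 at 0.80 the lowest.

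The beta-like class was made up differently in the libraries, so the ratios were also taken within its 5 clusters. Cluster 4, led by Gm27168, Ins2, Ins1 and Mt1, held 36.5% of CDS and 4.09% of saline beta-like cells. Cluster 0, with Sgcz and Mafa among its leading genes, held 4.69% and 38.5%. Cluster 8 was led by stress and acute-phase genes (Lcn2, Mt2, Mt1, Serpina3n and Hmox1). Clusters 1 (Mafa, Slc2a2, Ins1) and 2 (Pdyn, Ttyh1) were shared more evenly. The proteasome genes were not used for the clustering.

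Within clusters the members' median log2 ratio was smaller than the 0.56 of the whole class, except in cluster 8. In cluster 0, with 150 CDS and 1741 saline cells, 2 of 46 measured members were higher and 0 lower (7.04% and 7.72% of all genes), and the median log2 ratio was 0.10. In cluster 1, 19 of 47 were higher and 0 lower (15.9% and 12.9% of all genes) with a median of 0.29. In cluster 2, 17 of 47 were higher and 0 lower (14.8% and 10.0% of all genes) with a median of 0.26. In cluster 4, with 1168 CDS and 185 saline cells, 12 of 47 were higher and 1 lower (17.1% and 8.51% of all genes) with a median of 0.21. In cluster 8, with 435 CDS and 336 saline cells, 38 of 46 were higher and 1 lower (28.0% and 17.8% of all genes) with a median of 0.58. The medians of all genes in the same clusters lay between -0.03 and 0.10.

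Most catalytic genes had their highest point ratio in cluster 8, but Psmb7 did not. Each catalytic gene had a lower point ratio in every cluster, cluster 8 included, than in all beta-like cells. Psmb8 stood at 1.53 (1.35 to 1.73) in cluster 8 against 1.90 (1.80 to 2.01) in the whole class. Psmb5 stood at a ratio of 1.07 (0.93 to 1.23) in cluster 0 and 1.77 (1.61 to 1.94) in cluster 8, with 1.34, 1.31 and 1.26 in clusters 1, 2 and 4. Psmb8 stood at 1.004 (0.77 to 1.29) in cluster 0, 1.01 (0.84 to 1.24) in cluster 4, 1.30 in cluster 1, 1.52 in cluster 2 and 1.53 in cluster 8. Psmb9 stood at 0.745 (0.417 to 1.24) in cluster 0, the one cluster where its ratio was under 1. Psmb10 lay between 1.15 in cluster 0 and 1.49 in cluster 8. Psmb6 stood at 1.06 in cluster 0, 1.73 in cluster 8 and between 1.12 and 1.34 in the others. Psmb7 lay between 1.10 in cluster 0 and 1.21 in cluster 1, and stood at 1.204 (1.05 to 1.38) in cluster 8. On plain CPM the 50 genes in cluster 4 summed to 3162 CPM in CDS and 3315 CPM in saline cells, and in cluster 8 to 3976 and 3528 CPM.

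**Figure D2:**
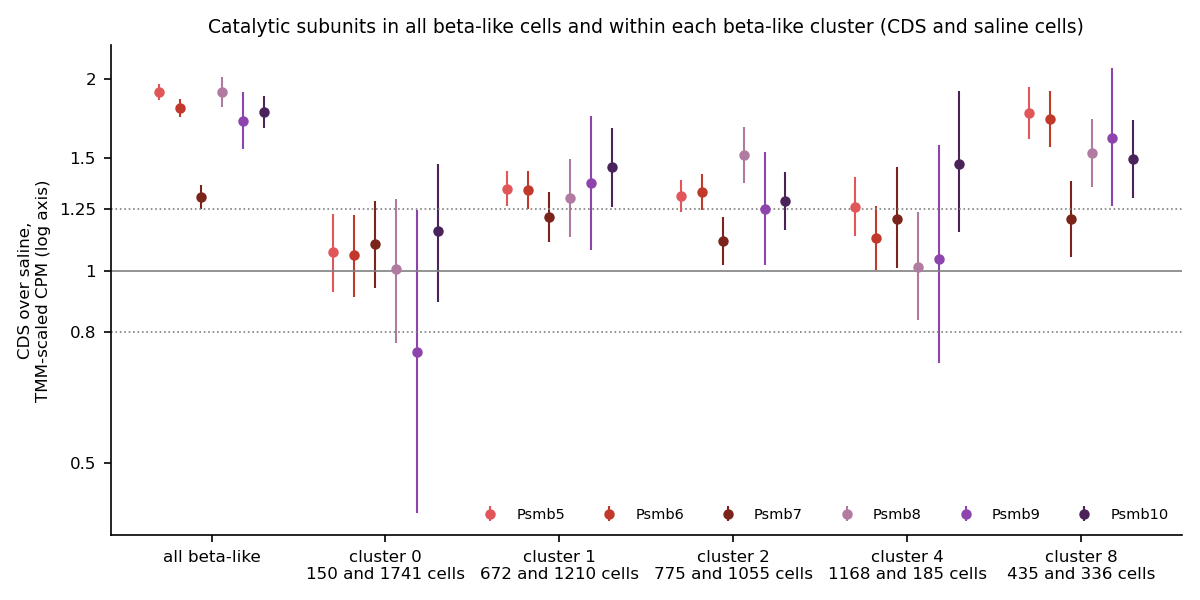
Ratios of CDS over saline of TMM-scaled CPM (log axis) for the 6 catalytic subunits in all beta-like cells and in each beta-like cluster; bars are 95% counting intervals, dotted lines the limits for a call. Ratios in cluster 0 lie between 0.745 (Psmb9) and 1.15 (Psmb10) with intervals that include 1. In cluster 8 Psmb5 and Psmb6 lie at 1.77 and 1.73, below the 1.91 and 1.80 of the whole class. Psmb8 lies there at 1.53, below the 1.90 of the whole class, and Psmb7 shows no peak there.

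Gene length moved with the ratios. With all genes in beta-like cells split into 5 equal bins of annotated span, the bin of the shortest genes had a median log2 ratio of 0.48 and that of the longest -0.35. Members are mostly short, with a median span of 11.6 kb (0.837 to 109 kb), and their medians were 0.75 in the bin of short genes and 0.19 in that of long ones. Taken relative to the running median of genes of like span, 22 of 48 members stood past the upper limit and 1 past the lower, with no condition on the interval, where 17.9% and 17.4% of all genes did. The median of the members was then 0.30. Psme4 then stood at 0.00 on the log2 scale, Psmg4 at 1.05, Psmb5 at 0.43, Psmb7 at 0.50 and Psmb8 at 0.44. The part of length in these ratios was not tested further.

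The other hormone classes showed smaller median log2 ratios of the same sign, although not every single member followed. In delta-like cells, which make somatostatin, 31 of 47 measured members were higher and 1 was lower, where 22.3% and 14.2% of all genes were, with a median log2 ratio of 0.44 for members and 0.06 for all genes. Psmb9 stood out there with 283 UMIs (35.5 TMM-scaled CPM) in CDS and 104 UMIs (16.3 CPM) in saline cells, a ratio of 2.18 (1.73 to 2.75), while Psmb8 stood at 1.43 and Psmb10 at 1.36. Psmg4 was at 2.13, and Psme4 was again lower, at 0.779. In alpha-like cells, which make glucagon, 18 of 46 were higher and none of the measured members was lower, against 18.0% and 9.51% of all genes, with medians of 0.30 and 0.04. Psmg4 (1.84) and Psmb5 (1.66) were the highest alpha-like ratios, and Psmd14 (0.88) the lowest. The alpha-like count of higher members was between 28 and 32 under 5 other choices of filter, doublet handling and clustering, with 21.3% to 23.2% of all genes higher under the same choices. The delta-like count was 9, with 2 lower, on plain CPM, where 10.2% of all genes were higher and 30.8% lower. Relative to genes of like span both classes lost most of their calls. Delta-like cells then had 11 members past the upper limit and 1 past the lower (14.4% and 14.3% of all genes) with a median of 0.14, and alpha-like cells 5 and 1 (11.4% and 13.0% of all genes) with a median of 0.11. Acinar RNA differed beside these results and its part was not tested. The 10 acinar markers summed to 172 CPM in CDS and 113 CPM in saline beta-like cells, 390 and 200 in alpha-like, 495 and 281 in delta-like, 676 and 217 in endothelial-like, and 739 and 317 in macrophage-like cells.

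In endothelial-like cells more members passed the upper limit than did not. There 26 of 47 measured members were higher and 0 lower, against 20.2% and 13.8% of all genes, with medians of 0.37 and 0.06. Psmg3 stood at 1.97 on 80 CDS and 45 saline UMIs, Psmb2 at 1.68 and Psmb5 at 1.33. Psmb8 stood at 1.08 (0.91 to 1.28), Psmb9 at 1.39 (0.90 to 2.18) and Psmb10 at 0.936 (0.652 to 1.34), and none passed a limit, nor did the standard Psmb7 at 1.24 (1.05 to 1.46), while the interferon-inducible Psme1 did at 1.31. As UMIs, the ratio of the immune genes to their standard partners over all 3 pairs changed 0.837 times (0.712 to 0.985), CDS over saline. By pair it changed 0.812 times (0.658 to 1.002) for Psmb8 to Psmb5 and 1.08 times (0.681 to 1.71) for Psmb9 to Psmb6. For Psmb10 to Psmb7 the change was 0.756 times (0.508 to 1.12). These intervals cover counting error only, and no test across samples was possible. The count of called members depended on the processing. With a looser cell filter it was 5 higher and 2 lower (20.0% and 17.9% of all genes), with doublets kept 14 and 0 (18.8% and 15.7%), and on plain CPM 7 and 1 (11.2% and 22.5%). Relative to genes of like span it was 14 and 4 (16.1% and 17.7% of all genes), with a median of 0.14.

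Macrophage-like cells had the fewest called members of the 6 classes at these settings. In them 5 of 45 measured members were higher and 0 lower, against 16.7% and 15.3% of all genes, so the share called was below that of all genes in both directions. The median log2 ratio was 0.05 for members and 0.03 for all genes. The higher genes were Psmb9 (1.54), Psmd10 (1.44), Psmd4 (1.36), Psmd7 (1.27) and Psmg1 (2.91, on 47 CDS and 11 saline UMIs). Psmb8, by contrast, had 413 TMM-scaled CPM in CDS and 377 CPM in saline cells, a ratio of 1.09 (0.97 to 1.24). On plain CPM 2 members were higher and 5 lower (10.6% and 23.4% of all genes), and relative to genes of like span 4 and 10 (21.7% and 22.2%), so no direction is given for the group.

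The calls of single members were then counted over classes. Of the 45 measured in each of the beta-, alpha-, delta-, endothelial- and macrophage-like classes, 1 (Psmg1) was higher in all 5, 14 in 4, 11 in 3, 9 in 2, 4 in 1 and 6 in none. Psmg4 was higher in all but the macrophage-like class. Of the 5998 genes measured in all 5 classes, 8.49% were higher in 5 of them, 7.62% in 4, 8.37% in 3, 7.97% in 2, 11.6% in 1 and 56.0% in none. Members were thus higher in 3 or more classes in 57.8% of cases against 24.5% of all genes, but in all 5 in 2.22% against 8.49%. These classes share their libraries, so the counts are not independent of each other.

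**Figure D3:**
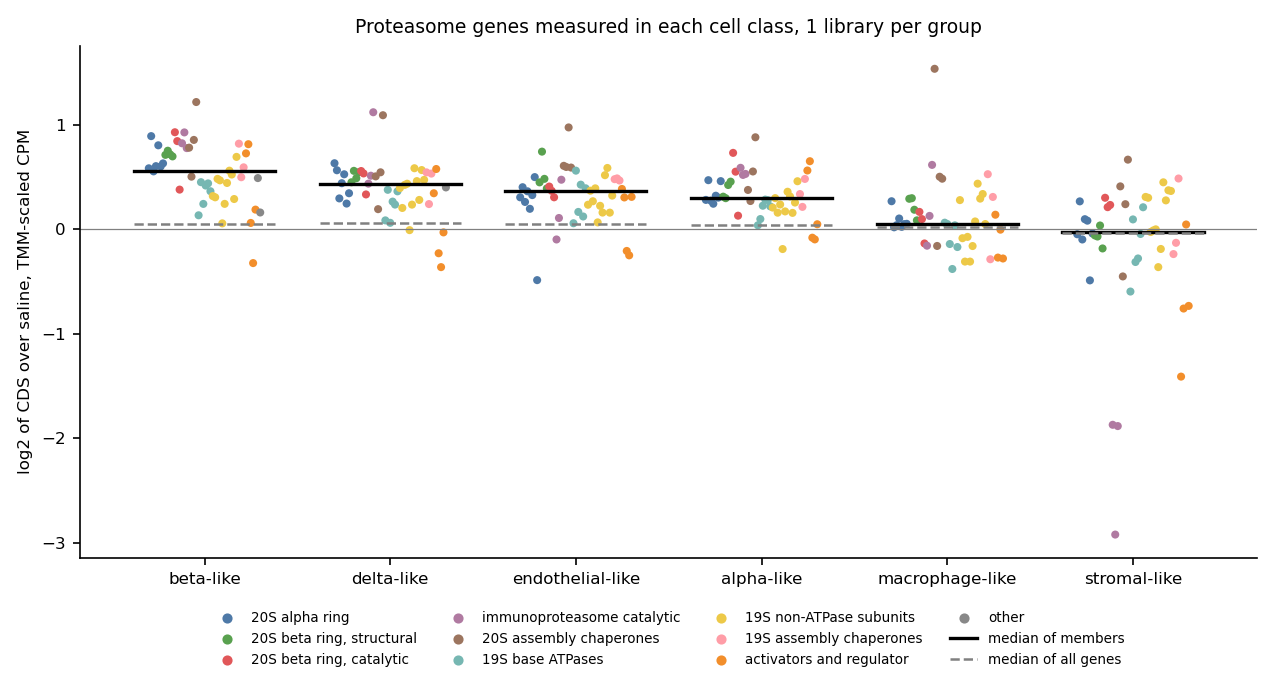
The log2 ratio of CDS over saline (TMM-scaled CPM) in 6 classes; each point is 1 measured gene coloured by role, solid lines are medians of members and dashed lines medians of all genes. Beta-like cells had the highest median log2 ratio (0.56), macrophage-like cells lay near 0 (0.05), and stromal-like cells held the lowest points, those of Psmb8, Psmb9 and Psmb10.

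The mix of immune and standard catalytic subunits separated the cell types. The immunoproteasome share was taken as UMIs of Psmb8, Psmb9 and Psmb10 over those UMIs plus the ones of Psmb5, Psmb6 and Psmb7. It needs no scaling between libraries, though it cannot show assembled particles. In immune classes it was above 50%, at 84.3% in saline dendritic-like, 72.8% in saline T-like, 62.9% in saline plasma-like, 65.4% in CDS and 67.5% in saline B-like, and 52.4% in CDS and 51.4% in saline macrophage-like cells. Delta-like cells had 35.3% (34.1 to 36.5) in CDS and 34.6% (33.0 to 36.3) in saline, above alpha-like cells with 30.3% (28.9 to 31.8) and 29.5% (27.6 to 31.5). Beta-like cells had 23.0% (22.5 to 23.4) in CDS and 22.0% (21.4 to 22.6) in saline. Endothelial-like cells had 19.2% (17.5 to 21.0) in CDS and 22.1% (20.2 to 24.1) in saline. Ductal-like cells, on 44 and 47 cells, had 12.4% (9.84 to 15.4) and 15.8% (12.6 to 19.4), acinar-like cells 36.3% (30.9 to 42.0) and 27.9% (24.2 to 31.9), and saline proliferating cells 23.4%. Of the 110 immune UMIs in CDS acinar-like cells, 95 were of Psmb10, 15 of Psmb8 and 0 of Psmb9. There the ratio of Psmb10 to Psmb7 changed 3.11 times (1.76 to 5.53), but that of Psmb8 to Psmb5 changed 0.394 times (0.197 to 0.751). The intervals of delta-, alpha- and beta-like cells did not overlap in either library, while saline beta- and endothelial-like cells did overlap.

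**Figure D4:**
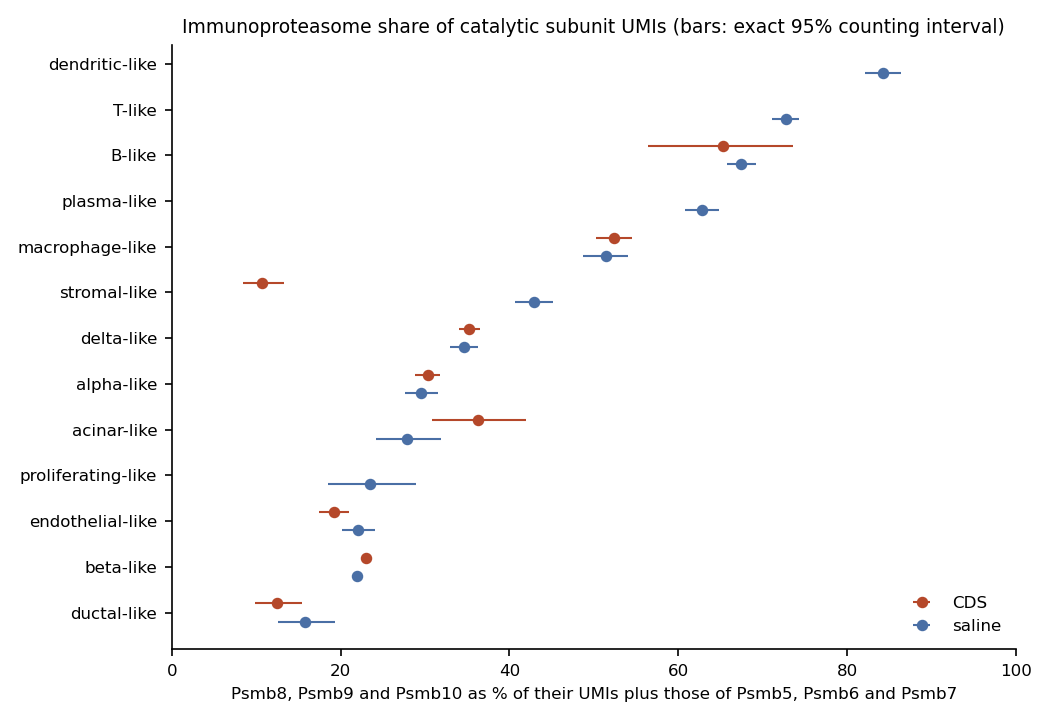
Immunoproteasome share of catalytic-subunit UMIs (percent) by class, CDS above saline in each class, with exact 95% binomial intervals that cover counting error only. Immune classes lie above 50%, hormone classes between 22.0% and 35.3%, and the stromal-like class has 10.7% in the CDS and 42.9% in the saline library.

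The levels behind these shares were read on plain CPM. There Psmb8 was at 391 CPM in CDS and 399 CPM in saline macrophage-like cells, 328 and 438 CPM in B-like cells, and 1153 CPM in saline dendritic-like cells. In hormone cells Psmb8 was at 118 CPM in CDS and 96.7 CPM in saline delta-like, 44.8 and 33.8 CPM in alpha-like, and 40.2 and 27.5 CPM in beta-like cells. Psmb5 ran at 242 CPM in CDS and 240 CPM in saline macrophage-like cells, 177 and 141 CPM in delta-like and 130 and 88.7 CPM in beta-like cells. On this scale Psmb8 had the order of the share over hormone cells, delta above alpha above beta. With each cell thinned to 3000 UMIs, which left out between 27 and 95 shallower cells per class and library, Psmb8 was at 135 CPM in CDS and 97.4 CPM in saline delta-like, 47.1 and 29.7 CPM in alpha-like, and 41.1 and 29.9 CPM in beta-like cells. The thinned values of saline alpha- and beta-like cells lay close together, and no interval was computed for them. A Psmb8 UMI was in 72 of 888 thinned saline alpha-like cells (8.11%, 95% interval 6.40 to 10.1). In thinned saline beta-like cells it was in 379 of 4476 (8.47%, 7.67 to 9.32). The order of these classes in the thinned saline cells was not tested.

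As counted, CDS and saline beta-like cells had nearly the same mix for 2 of the 3 pairs. The ratio of Psmb8 to Psmb5 was 0.310 in CDS and 0.310 in saline cells, a change of 0.999 times (0.939 to 1.06). For Psmb9 to Psmb6 the change was 0.955 times (0.857 to 1.06). Psmb10 to Psmb7 stood at 0.666 in CDS and 0.489 in saline cells, a change of 1.36 times (1.27 to 1.46), and over the 3 pairs together the change was 1.06 times (1.01 to 1.10). These values depend on RNA from other cells. The stray immune RNA estimated below was taken off the immune genes only, not off Psmb5, Psmb6 or Psmb7. The changes were then 1.13 times for Psmb8 to Psmb5, 1.08 times for Psmb9 to Psmb6 and 1.41 times for Psmb10 to Psmb7. No interval was computed for them. In alpha-like cells the pair of Psmb10 and Psmb7 changed 1.37 times (1.14 to 1.66). In delta-like cells it was the pair of Psmb9 and Psmb6, at 1.501 times (1.18 to 1.92), and in macrophage-like cells the same pair, at 1.43 times (1.07 to 1.92). The wide span of Psmb7 compared with Psmb10 (56052 against 2710 bases) stands beside the first of these pairs, and its part was not tested.

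Between beta-like clusters the mix varied more than between the libraries. The share was 32.5% (31.3 to 33.7) in CDS and 34.0% (32.0 to 36.0) in saline cells of cluster 8, which also had Lcn2 at 1418 CPM in CDS and 710 CPM in saline cells. In cluster 2 it was 24.9% in CDS and 23.4% in saline cells, in cluster 0 20.6% and 21.3%, in cluster 4 20.0% and 20.5%, and in cluster 1 17.3% and 16.6%. Psmb8 was at 81.4 CPM in CDS and 67.5 CPM in saline cells of cluster 8, against 21.8 and 18.8 CPM in cluster 1. The clusters were formed without these genes but from the same cells, so this is a description.

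Stray RNA of immune cells was estimated because the saline library held more lymphoid cells. The 7 B cell markers summed to 5.37 CPM in CDS and 22.9 CPM in saline beta-like cells, with all 7 detected in each. The 8 T cell markers summed to 0.611 CPM in CDS and 5.68 CPM in saline cells, and the 8 macrophage markers to 25.4 and 21.8 CPM, again with all detected. If such RNA carried Psmb8 in the proportion found in the immune classes, it would make up 2.74% of the Psmb8 UMIs of CDS and 14.2% of those of saline beta-like cells. For Psmb9 the values were 3.28% and 14.3%, and for Psmb10 0.930% and 4.55%. With these taken off, the ratios of CDS over saline were 2.16 for Psmb8, 1.94 for Psmb9 and 1.84 for Psmb10, all higher than before. Stray RNA of Psmb5, Psmb6 and Psmb7 was left in, and more was taken off saline cells. The pair changes given above could therefore only rise, and this estimate cannot tell whether the mix of Psmb8 and Psmb5 differs. Shares in cells without immune marker UMIs are given with the processing checks.

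Ctrl, an acinar protease gene, is the next gene downstream of Psmb10 on the same strand, with a gap of 1.872 kb (Psmb10 chr8:105935735-105938444, Ctrl chr8:105932003-105933862, both on the minus strand of mm10). Acinar-like cells held Ctrl at 7709 CPM in CDS and 2708 CPM in saline cells, and Psmb10 at 119 and 78.6 CPM. In beta-like cells with no Ctrl UMI, Psmb10 stood at 33.7 CPM in CDS and 24.9 CPM in saline cells, close to the 33.6 and 24.8 CPM of all beta-like cells.

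The stromal-like class went the other way for the immune subunits. It held 73 CDS and 171 saline cells, fewer than the 100 per library asked of the other classes, and was compared after its values were seen. Psmb8 had 28 UMIs (36.5 TMM-scaled CPM) in CDS and 466 UMIs (277 CPM) in saline cells, a ratio of 0.132 (0.087 to 0.193). Psmb9 had 10 UMIs in CDS and 81 in saline cells (ratio 0.271), and Psmb10 had 32 and 257 (0.273). The PA28 genes were lower as well, Psme1 at 0.377 and Psme2 at 0.592. The standard catalytic genes passed neither limit, with Psmb5 at 1.23 (1.06 to 1.43), Psmb6 at 1.16 and Psmb7 at 1.18. In all, 4 of 45 measured members were higher and 9 lower, where 14.4% and 17.6% of all genes were, and the medians were -0.02 for members and -0.03 for all genes.

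The immunoproteasome share of stromal-like cells was 10.7% (8.44 to 13.3) in the CDS and 42.9% (40.6 to 45.2) in the saline library. In saline cells the Psmb8 UMIs were spread over 100 of 171 cells, 50% of them were in 21 cells, and the most in 1 cell was 24. In CDS cells 20 of 73 held a Psmb8 UMI. Genes of the interferon response moved beside the share on plain CPM. Iigp1, an interferon-induced GTPase gene, was at 3.74 CPM in CDS and 478 CPM in saline cells, the chemokine gene Cxcl10 at 24.9 and 465 CPM, Isg15 at 47.4 and 461 CPM, and Tap1, the peptide pump coded beside Psmb9, at 12.5 and 81.3 CPM. Of 19 measured interferon genes 18 were lower and 0 higher, with a median log2 ratio of -2.82, and of 11 measured class I genes 10 were lower and 0 higher, with a median of -1.04.

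The makeup of the stromal-like class also differed, and each subset gave a smaller share in CDS. Ccl19 was at 7.48 CPM in CDS and 156 CPM in saline cells, the mural marker Rgs5 at 366 and 200 CPM, and Dcn at 581 and 1001 CPM. Cells with more collagen and Dcn than mural RNA (27 CDS and 107 saline cells) had shares of 13.1% and 47.2%. The other cells of that split, with more mural RNA (46 and 64 cells), had 7.82% (5.02 to 11.5) and 19.9% (15.5 to 24.9). Cells without a Ccl19 UMI (69 and 111) had 11.3% and 26.5%. Stray immune RNA, estimated as above, would carry 3.89% of the Psmb8 UMIs in CDS and 3.85% in saline stromal-like cells.

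**Figure D5:**
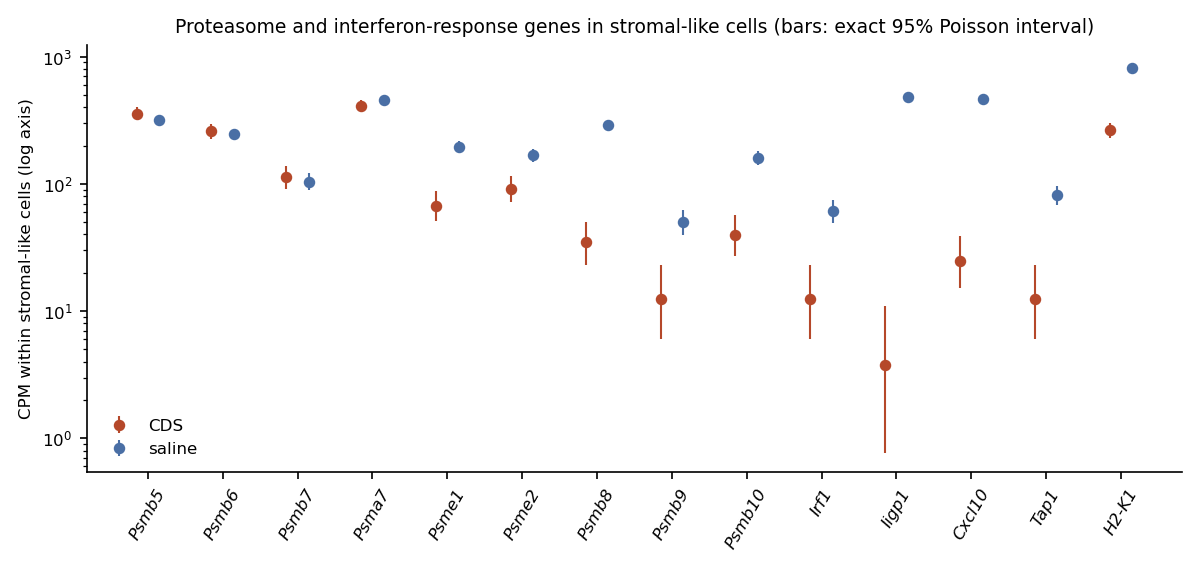
Plain CPM of catalytic subunits, Psma7, PA28 genes and interferon-response and class I genes in stromal-like cells, CDS left of saline, on a log axis with 95% counting intervals. Psmb5, Psmb6 and Psmb7 lie close together in both libraries, while Psmb8 is at 34.9 CPM in CDS and 289 CPM in saline cells and Cxcl10 at 24.9 and 465 CPM.

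Genes that work with the proteasome were read from 5 lists, chosen with earlier results of these data known. They are read against the 26.8% of all genes that were higher and the 18.5% that were lower in beta-like cells. Of 7 proteasome partners 5 were higher and 0 lower. They were Sem1, a small subunit of the lid (ratio 2.66), the core maturation protein Pomp (1.86), Txnl1 (1.66), the ubiquitin receptor Adrm1 (1.40) and the deubiquitinase Uchl5 (1.253), while Usp14 (1.16) and Ecpas (0.81) passed neither limit. None of the 7 regulators of proteasome genes passed a limit, with Nfe2l1, the factor that raises proteasome genes when activity drops, at 1.22, its protease Ddi2 at 0.803 and Nfe2l2 at 1.13. Of 11 genes of ubiquitin supply and shuttling 4 were higher and 0 lower, among them the ubiquitin genes Rps27a (2.23) and Ubb (2.02), a share of higher genes not far above that of all genes. Relative to genes of like span the median log2 ratio of the partners was 0.30 in place of 0.49, and that of Adrm1 was 0.06.

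Interferon genes in beta-like cells were more often lower than higher. Of 20 measured, 2 were higher (Ifi27 at 2.03 and Bst2 at 1.83) and 9 lower, where 26.8% and 18.5% of all genes were. Those lower included Irf8, which immune cells express, at 0.480, and Stat2 at 14.4 TMM-scaled CPM in CDS and 18.7 CPM in saline cells (ratio 0.768). The median log2 ratio was -0.24, and Irf1 stood at 0.946. The B and T cell markers given above were lower in CDS beta-like cells too (5.37 against 22.9 CPM and 0.611 against 5.68 CPM), and their part in these ratios was not tested. Of 12 class I genes 4 were higher, with H2-D1 at 1.79 and H2-K1 at 1.496, and 1 was lower, the class I transactivator Nlrc5 at 0.577, while Tap1 stood at 0.984. Relative to genes of like span the median of the class I list was -0.03 in place of 0.16, and H2-K1 stood at 0.10 on the log2 scale. In macrophage-like cells 1 of 19 interferon genes was higher and 12 were lower (median log2 ratio -1.04), and 0 of 12 class I genes were higher and 5 lower (median -0.41), against 16.7% and 15.3% of all genes. Psmb8 (1.09) and Psmb10 (0.898) of the same cells passed neither limit. Interferon genes counted 3 higher and 3 lower of 16 in alpha-like cells (18.0% and 9.51% of all genes), with a median log2 ratio of -0.24. They counted 2 and 3 of 14 in delta-like cells (22.3% and 14.2% of all genes), with a median of -0.27. In endothelial-like cells they counted 5 and 3 of 19 (20.2% and 13.8% of all genes), with a median of 0.15. The alpha- and delta-like medians were thus close to that of beta-like cells.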

How the data were processed

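Single-cell RNA of 1 CDS and 1 saline library was read from the deposited matrices, which hold raw UMI counts per gene and barcode as made by Cell Ranger 7.1.0, per the file headers. The submitters' processing notes also name Seurat 4, edgeR and mm10. The labels' protocols name both 3' v3.1 and v2 chemistry, and how strand and introns were handled is not given in the sources used here.

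Barcodes with at least 500 genes, 1000 UMIs and at most 20% mitochondrial UMIs were kept (6415 CDS and 11591 saline), and Scrublet in Scanpy 1.11.5 removed 227 and 621 doublets. Cells of both libraries were clustered together without the 50 proteasome genes (2000 variable genes, 30 components, 15 neighbours, Leiden resolution 1, leidenalg 0.10.2), giving 24 clusters. A cluster was named for the class whose fixed markers scored highest, at 0.5 or more and by a margin of at least 0.3. At least 3 of the markers had to be detected in at least 25% of its cells. A cluster stayed unnamed if its top 10 genes held more markers of another class than its own. It also stayed unnamed if it was shallow and had no own marker among them. In all, 949 CDS and 1804 saline cells stayed unnamed. UMIs were summed per class and library, scaled with TMM (edgeR 4.0.16, R 4.3.3) and compared as ratios with exact conditional 95% intervals in SciPy 1.17.1. Shares carry exact Clopper-Pearson intervals and levels exact Poisson intervals. Gene spans and overlaps come from the GENCODE annotation of mm10. Library totals were 141191447 UMIs in the CDS and 124343325 UMIs in the saline library.

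The members, lists and tests were chosen with earlier results of these data known. Named genes were the members in full for the 6 catalytic subunits, the highest, lowest and uncalled members of each role group, and from each list up to 2 genes at 20 CPM or more with the largest ratio change in beta-like cells; other named genes were chosen after their values were seen. ISRE was searched on both strands with 10 letters, the core GAAA on each side of any 2 bases. The stromal-like comparison, the count of calls over classes for all genes, the single beta-like clusters, the stray immune RNA estimate and the Ctrl check were added after seeing the data. The ratio code was tested on simulated counts. Proteins and the promoter of Psmb7 were not used here. Some genes of the lists are counted but not reported here by name.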

Additional observations from a re-analysis of the deposited data

Results flagged for a closer look

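A difference between classes under the same contrast was noted for 6 members, because their ratio of CDS over saline was past the upper limit in at least 1 class and past the lower limit in stromal-like cells. The number of classes past the upper limit was 4 for Psmb9 and Psme1, 3 for Psmb8, Psmb10 and Psme2, and 2 for Psma6, and the highest of those ratios is given. The differences themselves were not tested, and each class has 1 library a group. Psmb8 stood at 1.90 in beta-like and 0.132 in stromal-like cells, and Psmb10 at 1.77 and 0.273. Psmb9 stood at 2.18 in delta-like and 0.271 in stromal-like cells. The PA28 genes stood at 1.66 in beta-like and 0.377 in stromal-like cells for Psme1, and at 1.76 and 0.592 for Psme2. Psma6, an alpha-ring gene, stood at 1.52 in beta-like and 0.713 in stromal-like cells. The stromal-like values rest on 73 CDS and 171 saline cells, and the beta-like ratios differ between beta-like clusters.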

How the results depend on the processing

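No paired analysis was possible because each group has 1 library. Each value was recomputed under each alternative, and every such recomputation is counted once. For summary values 195 recomputations kept direction and size, 74 moved and 2 reversed, and for single ratios, levels and shares 137 kept them, 68 moved and 2 reversed. A value can be in more than 1 of these counts. The reversed single ratios were Psmb7 in beta-like cells on plain CPM (0.999) and Psmb9 in beta-like cluster 0 alone (0.745). The cause was not tested unless said.

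In beta-like cells plain CPM gave 16 members higher, 2 lower and a median log2 ratio of 0.18, and the length adjustment 22 higher and a median of 0.30. With the looser filter, Leiden resolution 2, cells also gated one by one, or a mean over cells, 0 were lower. Clusters alone gave 2 higher, 0 lower and 0.10 (cluster 0), 19, 0 and 0.29 (cluster 1), 17, 0 and 0.26 (cluster 2), and 12 higher and 0.21 (cluster 4). In alpha-like cells plain CPM gave a median of 0.19. The number higher was 32 (median 0.39) with the looser filter, 30 with the stricter one, 31 (0.41) with doublets kept, 28 and 29 at Leiden 0.5 and 2, and 5, with 1 lower and a median of 0.11, after the length adjustment. In delta-like cells plain CPM gave 9 higher, 2 lower and 0.21, and the length adjustment 11 higher and 0.14. In endothelial-like cells plain CPM gave 7 higher, 1 lower and 0.21, the looser filter 5, 2 and 0.15, doublets kept 14 higher and 0.24, and the length adjustment 14, 4 and 0.14.

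In macrophage-like cells the median reversed on plain CPM (-0.11, with 2 higher and 5 lower) and after the length adjustment (-0.048, with 10 lower). The looser filter gave 2 higher, 4 lower and 0.0025, and a mean over cells 2 lower and 0.0033. DESeq2 1.42.0 factors and Leiden 0.5 gave 2 lower each, the stricter filter 3, and doublets kept and one-by-one gating 1 each. Apart from plain CPM and the length adjustment, the share of all genes called in macrophage-like cells is not given for these settings. These counts are therefore not read as a result about the members. The immunoproteasome share moved in beta-like cells to 21.3% in CDS and 21.0% in saline with gating one by one, 24.4% and 23.4% in cells without immune marker UMIs, and 23.6% and 22.7% as a mean over cells. In delta-like cells without immune marker UMIs it was 39.1% in CDS and 37.8% in saline. Such cells were 1157 of 3200 CDS and 415 of 4527 saline beta-like cells, and 233 of 503 and 105 of 550 delta-like cells. The beta-like ones were shallower than their class, with medians of 24310 against 28136.5 UMIs in CDS and 12878 against 16000 in saline. Mean over cells gave 31.9% in CDS alpha-like and 56.3% in CDS macrophage-like cells. Saline endothelial-like cells had 25.9% with the looser filter, 26.2% with doublets kept and 25.2% at Leiden 0.5 and 2.

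Plain CPM shifted all log2 ratios by -0.38 (beta-like), -0.23 (delta-like), -0.16 (endothelial- and macrophage-like), -0.13 (stromal-like) and -0.11 (alpha-like). Scrublet marked 0 doublets in the CDS library under the looser filter (703 in saline), so it did not work there. Genes under 50 UMIs, such as Psma8 and Psmb11, were too sparse to compare, and counting intervals leave out the spread between animals.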
